A study of Mus musculus with 24 samples.

Results

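Lithium treatment of mice heterozygous for the Dyrk1a allele I48X was examined in prefrontal cortex by setting 6 RNA sequencing libraries from lithium-treated mice against 6 from vehicle-treated mice. The 12 libraries were taken by their labelled genotype and treatment from the 24 libraries of the series. The whole series also holds 6 libraries from heterozygotes on fluoxetine and 6 from wild-type mice on vehicle. Every mouse was of strain C57BL/6J and was analysed at postnatal day 40. Both arms compared here carry the allele (Dyrk1a+/I48X, labelled HT), and each holds 3 libraries from females and 3 from males. No wild-type mouse received lithium, so the comparison describes heterozygotes alone. For dose, route and length of treatment, the sources used here give no value. Whether the libraries of an arm come from separate animals is not labelled either, so each p-value reflects how far these particular samples spread, which may in part be technical.

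The batch label divides the samples exactly as the treatment does. All 6 lithium libraries belong to batch P40_L2 and all 6 vehicle libraries to batch P40_L1, so lithium and batch cannot be told apart in any difference given here. What a batch stands for is not given in the labels. The single library that links the batches is HT fluoxetine female 3, the only library of batch P40_L2 without lithium, whose 2 counterparts (HT fluoxetine females 1 and 2) are in batch P40_L1. Its value is given beside each main result as the bridge value, with no test, because it is 1 library. It differs from both arms in drug, so a bridge value near either arm does not show a batch difference. Counts of genes above or below its counterparts are given without the share over all genes tested, so they are a description only.

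Lithium is a mood stabiliser that inhibits glycogen synthase kinase 3 (GSK3) and a family of magnesium-dependent phosphatases, among them the inositol monophosphatases that recycle inositol for phosphoinositide signalling. Active GSK3 marks beta-catenin for destruction within a complex built on Axin and Apc, so its inhibition is known to favour beta-catenin and its target genes. DYRK1A is a dose-sensitive kinase that primes several proteins for phosphorylation by GSK3 and opposes the calcineurin and NFAT pathway.

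Values are normalised read counts, that is, reads divided by a library's size factor. They were not corrected for gene length, so levels are compared between libraries for the same gene and never between genes. A difference is lithium minus vehicle on the log2(value + 1) scale ± its standard error from limma, with both sexes given equal weight. A gene was called when its p-value, adjusted by Benjamini-Hochberg over the 16825 genes tested, was under 0.05.

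Depth ran from 24133344 to 35940460 recovered reads per library. Xist and Ddx3y matched the labelled sex in every library. Cortical excitatory neuron markers were present in each of the 12 libraries, with a summed level over 13 genes of 50921 to 87267 on lithium and 58766 to 85154 on vehicle. RNA of neighbouring tissue varied: the summed level of 13 olfactory bulb genes ran from 10810 to 61246 on lithium, highest in lithium male 1, and from 12470 to 48425 on vehicle, highest in vehicle female 2 and vehicle male 3. The mitral cell gene Eomes was at 0 in vehicle male 2. Drd2, a receptor of striatal projection neurons, reached 1379 in vehicle male 1, and the choroid plexus gene Ttr reached 3407 in vehicle female 1. The bridge library and its counterparts varied as well. The olfactory bulb sum was 30900 in the bridge library, 60088 in fluoxetine female 1 and 12736 in fluoxetine female 2, where Ttr was at 781. Every bridge difference rests on these libraries, and so does the batch term used below. In tissue of this kind a lower level can come from fewer cells of a type or from less RNA per cell, and these cannot be told apart.

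In 5 features every lithium library was listed at 0, and 3 of them were above 0 in every vehicle library. Gm28048 is a read-through gene model on chromosome 11 that joins exons held by Commd1 to sequence held by B3gnt2. The other 4 are processed pseudogenes, copies of the messenger RNAs of Rpl15 (Rpl15-ps3), Gapdh (Gm12671), Rps6 (Rps6-ps4) and Set (Gm9531). The junction stretch of Gm28048 is shown because neither Commd1 nor B3gnt2 holds it whole, and the first bases of 3 pseudogenes because they are identical to the parent gene. They were read from the GENCODE M21 transcripts on the mouse build GRCm38, 5′ to 3′. In Gm28048 the capitals mark the 6 bases that follow the junction of its exons 2 and 3, and in the others the start codon.
Gm28048: ctggaatttggaaaaaatggacagGTATGA
Rpl15-ps3: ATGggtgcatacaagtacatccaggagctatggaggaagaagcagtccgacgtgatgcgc
Gm12671: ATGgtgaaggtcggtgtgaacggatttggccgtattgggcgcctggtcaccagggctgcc
Rps6-ps4: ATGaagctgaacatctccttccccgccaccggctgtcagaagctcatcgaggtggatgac

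The junction stretch of Gm28048, its bases 271 to 300, is whole in no transcript of Commd1 or B3gnt2, while the 24 bases before the junction are also in Commd1. The model has exons of 12, 282 and 2452 bases, and the first 2 are whole within Commd1 transcripts. Of its 2716 stretches of 31 bases, 98.9% are also in other genes, 89.1% in B3gnt2 and 9.76% in Commd1, which leaves 30 that are its own. The 615 bases of Rpl15-ps3 match Rpl15 without a difference from base 218 of the parent's transcript, the 1002 bases of Gm12671 match Gapdh from base 93, and the 750 bases of Rps6-ps4 match Rps6 from base 87. For these 3 pseudogenes 100% of the 31-base stretches are shared with the parent, and for Gm9531 it is 97.4%. The level of each of these 5 features therefore depends on how reads shared with the parent gene were divided.

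Gm28048 (ENSMUSG00000098650, chromosome 11, 22834744 to 22982090, minus strand) was at 0 in all 6 lithium libraries and in the bridge library. On vehicle it ran from 87.9 through a median of 111 to 171. The groups did not overlap, and 16 of the 17 libraries of batch P40_L1 were above 0, whatever their genotype or drug. The difference was called (-6.84 ± 1.04, limma adjusted p = 0.0463). Rpl15-ps3 (ENSMUSG00000061167, chromosome 9, 22185607 to 22186221, minus strand) was also at 0 in all 6 lithium libraries and in the bridge library, against 11.7, 52.1 and 116 for the lowest, median and highest vehicle library. It was above 0 in 17 of 17 libraries of batch P40_L1, and its difference was called as well (-5.47 ± 0.88, limma adjusted p = 0.0486).

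Since the lithium libraries are at 0, the fitted differences depend on the pseudocount. A floor of 3 reads in the lithium library where a read is worth most is a value of 3.69. The vehicle mean of Gm28048 was 31.6 times that floor and that of Rpl15-ps3 14.8 times. The floor covers counting error only and not the division of shared reads, so these are not lower bounds. Gm28048 was also at 0 in a library of batch P40_L1, WT vehicle male 1. Both calls were lost when any of the 12 libraries was left out (for Gm28048 the limma adjusted p was then between 0.105 and 0.182, and for Rpl15-ps3 between 0.0841 and 0.246). The differences themselves then ran from -6.93 to -6.73 and from -5.87 to -5.16. With batch as a term in the fit, which rests on the bridge library, they were -0.71 and -0.67 (limma adjusted p = 1 for both).

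Gm12671 (chromosome 4, 91851668 to 91852669) followed the same pattern without passing the main test. Its lithium and bridge values were all 0, and the vehicle libraries ran from 42.9 through 130 to 243 (-6.88 ± 1.38, limma adjusted p = 0.346). The groups did not overlap, and 13 of 17 libraries of batch P40_L1 were above 0. DESeq2 on the recovered reads called Gm12671 (log2 difference -20.8, DESeq2 adjusted p = 4.2e-20), a size without a limit when an arm is all 0, while edgeR did not call it. Rps6-ps4 (chromosome 2, 75191073 to 75191822) was above 0 in 12 of those 17 libraries, and in 5 of the 6 vehicle libraries, where it reached 59.7. Gm9531 (chromosome 9, 81677598 to 81678677) was above 0 in 6 of the 17, and in 2 of the 6 vehicle libraries, where it reached 37.6. No tested gene had the opposite pattern, 0 in all 6 vehicle libraries. Testing required a mean of at least 10 over the 24 libraries, of which 17 are of batch P40_L1 and 7 of batch P40_L2. A gene read in batch P40_L2 alone needed higher values to be tested, so this absence is partly set by the filter.

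**Figure D1:**
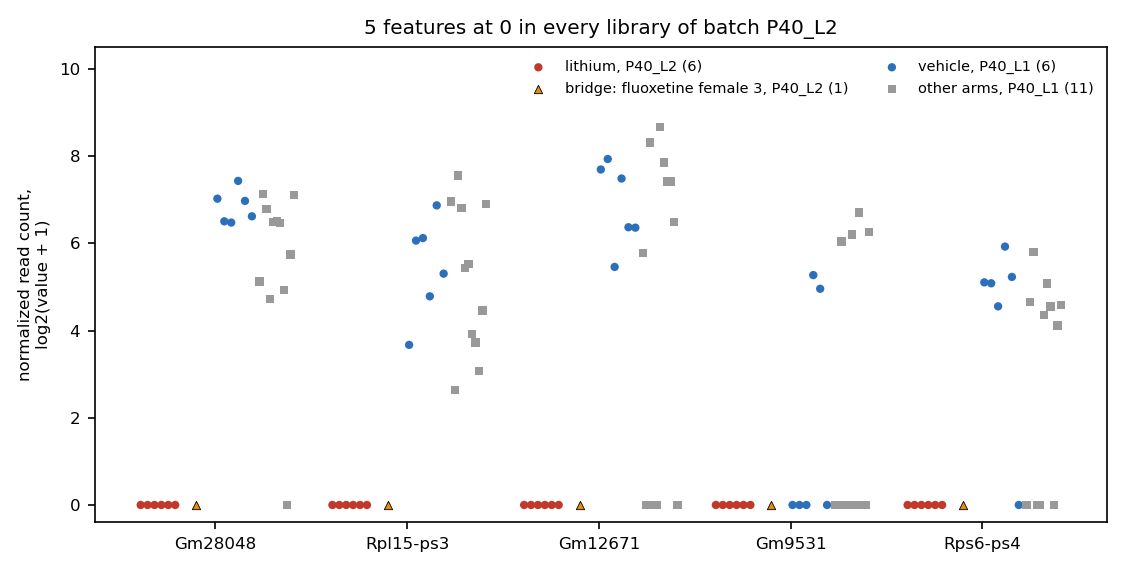
Normalised read counts, as log2(value + 1) on the vertical axis, of the 5 features in each of the 24 libraries: red, lithium (6); orange triangles, the bridge library; blue, vehicle (6); grey squares, the other 11 libraries of batch P40_L1. All 7 libraries of batch P40_L2 lie at 0 for every feature, while Rpl15-ps3 is above 0 in all 17 libraries of batch P40_L1.

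The parent genes were not lower on lithium. B3gnt2, which encodes an enzyme that extends poly-N-acetyllactosamine chains, ran from 520 through 659 to 726 on lithium and from 447 through 528 to 603 on vehicle, with a bridge value of 636. The groups overlapped and the difference did not pass (0.28 ± 0.14, limma adjusted p = 1). When the reads of Gm28048 were added to those of B3gnt2, the lithium libraries held 644 ± 74.9 (SD, n = 6) and the vehicle libraries 648 ± 82.5 (SD, n = 6). The sums overlapped almost fully, from 520 to 726 and from 544 to 739. Commd1, a regulator of copper handling and of NF-kappaB, stood at 324 ± 17.2 (SD, n = 6) on lithium and 306 ± 25.1 on vehicle (0.09 ± 0.07). With Gm28048 added to Commd1 instead, the sums did not overlap, at 291 to 338 on lithium and 349 to 486 on vehicle. Rpl15, a protein of the large ribosomal subunit, stood at 4385 ± 193 and 4269 ± 195, and at 4385 and 4323 with Rpl15-ps3 added. Gapdh with Gm12671 gave 76906 ± 6834 on lithium and 73916 ± 9686 on vehicle. Rps6 with Rps6-ps4 gave 4253 ± 195 and 4037 ± 204, and Set with Gm9531 gave 3891 ± 195 and 3781 ± 154. Apart from the sum with Commd1, the arms overlapped in each of these sums.

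**Figure D2:**
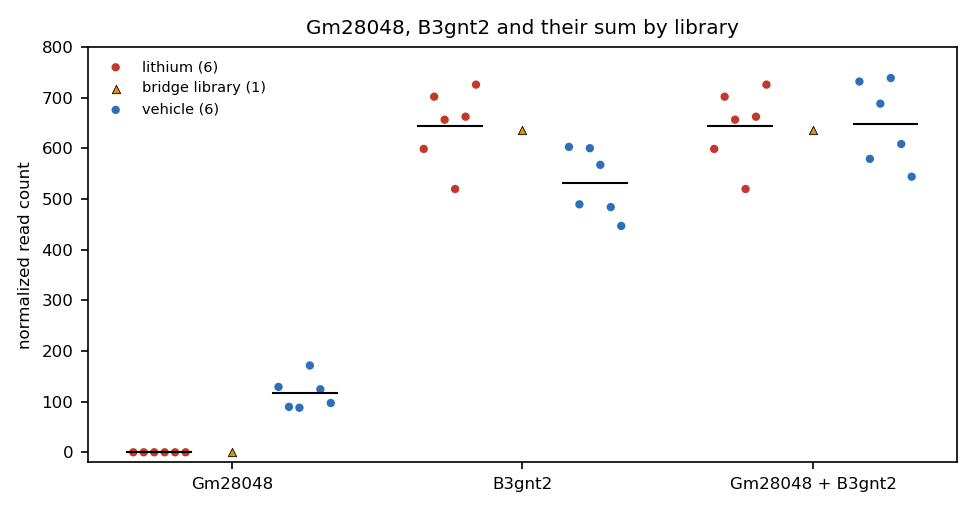
Normalised read counts of Gm28048, B3gnt2 and their sum in each lithium (red), bridge (orange) and vehicle (blue) library, with the mean of each arm of 6 as a black line. Gm28048 is at 0 on lithium, B3gnt2 is somewhat higher there, and the means of the sum are 644 and 648.

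Apart from Gm28048 and Rpl15-ps3 no gene passed the test: 2 of 16825 genes were called, 0.0119% of those tested, both lower on lithium. At an unadjusted p under 0.05 there were 463 genes, 2.75% of those tested, with 240 higher (1.43%) and 223 lower (1.33%). If nothing differed, 841 would be found on average, with a wider spread around that number when genes are not independent. edgeR on the recovered reads called 0 genes, with 456 at an unadjusted p under 0.05 (2.71%), and DESeq2 called 3 (0.0178%), the same 2 and Gm12671. The median difference over all genes tested was -0.00089, and the median standard error was 0.10, so a small difference in a typical gene could not pass. A call list this short therefore limits the size of a difference in a typical gene and does not show that the arms are alike.

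In 28 genes, 0.166% of those tested, the 6 lithium values lay wholly above or wholly below the 6 vehicle values. How many would separate if the arms did not differ was not computed, so separation alone does not mark out a gene. The limma unadjusted p of the 28 ran from 2.8e-06 (Gm28048) to 0.115 (Nit1). They were 15 higher (0.0892%) and 13 lower (0.0773%) genes, 23 of them annotated as protein-coding. The bridge library lay within the lithium range for 3 of the 15 higher and 8 of the 13 lower genes, and within the vehicle range for 8 and 4. Gm28048, Rpl15-ps3 and Gm12671, at 0, are among those 8 lower genes. Against fluoxetine females 1 and 2, the bridge library differed the same way as lithium in 7 of the 15 and 6 of the 13.

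Lrrc75a, which encodes a leucine-rich repeat protein, had the smallest p after the 2 called features and shares no stretch of 31 bases with another gene. It ran from 486 through 503 to 547 on lithium and from 417 through 448 to 467 on vehicle, and the bridge library held 473. Every lithium library lay above every vehicle library, yet the difference did not pass (0.20 ± 0.04, limma adjusted p = 0.328). It was 0.18 in females and 0.21 in males, and 0.24 with the batch term. Libraries without lithium reached the lithium range, at 439 to 527 in wild-type mice on vehicle and 473 to 503 on fluoxetine.

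March11, a membrane RING ubiquitin ligase gene, ran from 90.8 through 99.6 to 110 on lithium and from 69.7 through 77.7 to 90.7 on vehicle (0.34 ± 0.08, limma adjusted p = 0.8). Its groups touched without overlapping, and the bridge value of 85.5 fell in the vehicle range. The wild-type libraries, without lithium, held 92.1 to 120, within or above the lithium range. Pcdhga4, a clustered protocadherin, was also wholly higher, at 556 to 621 against 398 to 514 (0.36 ± 0.08, limma adjusted p = 0.703), with a bridge value of 465. Fluoxetine females 1 and 2, of batch P40_L1 and without lithium, held 588 and 587, within the lithium range. Since 67.5% of the 31-base stretches of Pcdhga4 are held by other genes too, 65.6% by the protocadherin Pcdhgb1, its reads are uncertain. The stress-response transcription factor Atf4 held 3114 to 3371 on lithium and 2793 to 3106 on vehicle (0.11 ± 0.03, limma adjusted p = 1), with a bridge value of 2887. Fscn1, which encodes an actin-bundling protein, held 5905 to 6605 against 5480 to 5772, with a bridge value of 6098. Crhbp, whose product binds corticotropin-releasing hormone, held 380 to 456 against 334 to 367, with a bridge value of 391. Wild-type libraries reached the lithium range for Atf4 (2945 to 3164), Fscn1 (5680 to 6816) and Crhbp (379 to 485) too. The remaining higher genes were Slfn3, Lnp1, Trim71, Dph2, Usp21, Dbx2, Pqlc2, A230001M10Rik and Car7, and Slfn3 stood at only 5.41 to 17.4 in the 12 libraries.

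Among the lower genes, 2 are expressed by microglia, the immune cells of the brain. The chemokine receptor Cx3cr1 held 1118 through 1282 to 1304 on lithium and 1329 through 1338 to 1426 on vehicle, with a bridge value of 1142 (-0.12 ± 0.07, limma adjusted p = 1). Ly86, which encodes a secreted partner of a Toll-like receptor homologue, held 166 through 177 to 185 against 193 through 204 to 233, with a bridge value of 195 (-0.24 ± 0.07, limma adjusted p = 1). Neither passed, and the bridge library was in the lithium range for Cx3cr1 and in the vehicle range for Ly86. Wild-type libraries, without lithium, held 1138 to 1379 for Cx3cr1 and 172 to 212 for Ly86, which reaches into the lithium range of both. The others were Ube2t, Slc26a10, Kcnj14, Incenp, Nit1, Gm14418, Gm10790 and B230206L02Rik beside the 3 features at 0.

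Other genes of small p that failed the test had arms that overlapped. Klhl14, a Kelch-like adaptor gene, ran from 136 through 220 to 247 on lithium and from 36.5 through 100.2 to 147 on vehicle (1.21 ± 0.31, limma adjusted p = 1). All 3 lithium males, at 237 to 247, and lithium females 1 and 3, at 188 and 202, lay above every vehicle library. The bridge library held 109. Trim36, a ubiquitin ligase gene, held 123 to 173 against 75.1 to 128 (0.50 ± 0.12, limma adjusted p = 0.8). The microtubule-severing gene Fign was at 0.31 ± 0.08, the zinc finger gene Cxxc5 at 0.19 ± 0.05 and Zfp667 at 0.21 ± 0.06. On the lower side Epb41, a gene of the membrane skeleton, held 1115 through 1181 to 1453 against 1449 through 1491 to 1813 (-0.34 ± 0.08, limma adjusted p = 0.703). The highest lithium library, lithium male 1, just passed the lowest vehicle library, and the bridge value was 1324. Unc13c, a vesicle priming gene, was at -0.49 ± 0.14, and its highest vehicle value, 1322, came from vehicle male 1, the library of high Drd2. The cytokine gene Il33 was at -0.33 ± 0.10, Mxra7 at -0.26 ± 0.07 and Gpld1 at -0.17 ± 0.06. Cracr2a, a calcium sensor gene, stood at -0.67 ± 0.21 (limma adjusted p = 1) and was called without the 6 of 24 libraries of highest olfactory bulb score (-0.82, limma adjusted p = 0.0476).

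**Figure D3:**
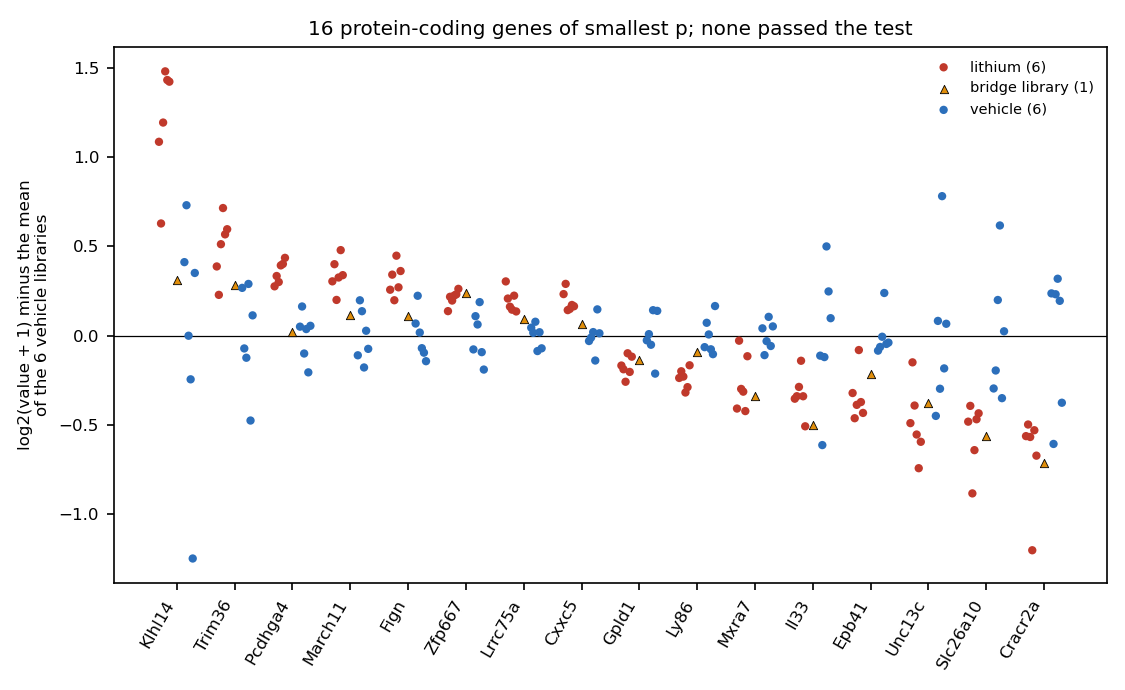
Each library's log2(value + 1) minus the mean of the 6 vehicle libraries for the 16 protein-coding genes of smallest p, 8 in each direction, with a mean of at least 50 and all 6 lithium libraries on 1 side of the vehicle mean: lithium in red, the bridge library as an orange triangle, vehicle in blue. Lithium and vehicle separate or touch for several genes, and the bridge library lies on either side, near vehicle for Pcdhga4 and near lithium for Slc26a10.

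The enzymes that lithium inhibits directly showed no called difference. Impa1, the main inositol monophosphatase gene, ran from 1567 through 1627 to 1700 on lithium and from 1548 through 1699 to 1729 on vehicle. The groups overlapped throughout, with a difference of -0.03 ± 0.04 (95% interval -0.11 to 0.06) and a bridge value of 1643. Its relative Impa2 held 128 to 186 against 125 to 178 (0.05 ± 0.11, interval -0.18 to 0.28). Inpp1, the inositol polyphosphate 1-phosphatase, was at -0.0099 ± 0.04 (interval -0.10 to 0.08), and the bisphosphate nucleotidase Bpnt1 at -0.01 ± 0.04 (interval -0.09 to 0.06). In inositol supply, the inositol transporter Slc5a3 was at 0.07 ± 0.09, with its highest lithium value, 761, in lithium male 1. Isyna1, which makes inositol from glucose 6-phosphate, was at -0.02 ± 0.08 and the phosphatidylinositol synthase Cdipt at 0.07 ± 0.09. Of the 13 tested genes of this list 7 were higher and 6 lower, 0 were called and 0 had an unadjusted p under 0.05, and the median difference was 0.0071. Fbp2 and Miox were listed too but have no value here.

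GSK3 itself was also close to level. Gsk3b held 4301 through 4989 to 5273 on lithium and 4334 through 4913 to 5438 on vehicle, with a difference of 0.01 ± 0.07 (interval -0.14 to 0.17) and a bridge value of 5260. Gsk3a held 4938 to 6802 against 5113 to 6714 (0.02 ± 0.10). Ctnnb1, which encodes beta-catenin, held 14004 through 15096 to 15770 against 13674 through 14161 to 15450, and its difference of 0.07 ± 0.05 had an interval of -0.03 to 0.17. Of the 17 genes of GSK3, its regulators and the destruction complex 12 were higher and 5 lower, with 0 called and a median of 0.02.

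Among 18 target and feedback genes of Wnt and beta-catenin signalling 7 were higher and 11 lower, with a median of -0.02 and 0 called. That median ran from -0.09 to 0.04 when single libraries were left out. Axin2, a feedback inhibitor often read as a measure of the pathway, held 855 through 950 to 993 on lithium and 833 through 947 to 1006 on vehicle (-0.0093 ± 0.06, interval -0.13 to 0.11). The transcription factor Lef1 was at 0.04 ± 0.13. The cell cycle gene Ccnd1 was the single member with an unadjusted p under 0.05, at 1524 through 1872 to 1944 against 1465 through 1564 to 1676 (0.21 ± 0.09, limma adjusted p = 1). Its bridge value was 1630, within the vehicle range. The feedback genes Nkd1 and Nkd2 were at -0.10 ± 0.06 and -0.30 ± 0.33. In phosphoinositide and protein kinase C signalling 10 of 18 genes were higher, with a median of 0.02. Marcks, a protein kinase C substrate known to decline under lithium in other systems, held 2790 to 4691 against 2618 to 4152 (0.05 ± 0.14).

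Dyrk1a held 2254 through 2454 to 2584 on lithium and 2254 through 2365 to 2431 on vehicle (0.05 ± 0.04, interval -0.02 to 0.13), with a bridge value of 2589. Since an allele with an early stop can leave RNA levels as they were, Dyrk1a is no check of the labelled genotype. Of 9 tested DYRK and CLK kinase genes and partners 7 were higher, with a median of 0.04, Dyrk3 at 0.16 ± 0.16 and Clk3 at 0.08 ± 0.05. Dyrk4 has no value here. Of 13 calcineurin and NFAT genes 5 were higher and 8 lower. Rcan1, a calcineurin inhibitor induced by NFAT, held 1186 to 1655 against 1296 to 1702 (0.01 ± 0.10). Nfatc2 stood at -0.25 ± 0.13 and Nfatc4 at 0.27 ± 0.16, and 0 of the 13 were called.

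**Figure D4:**
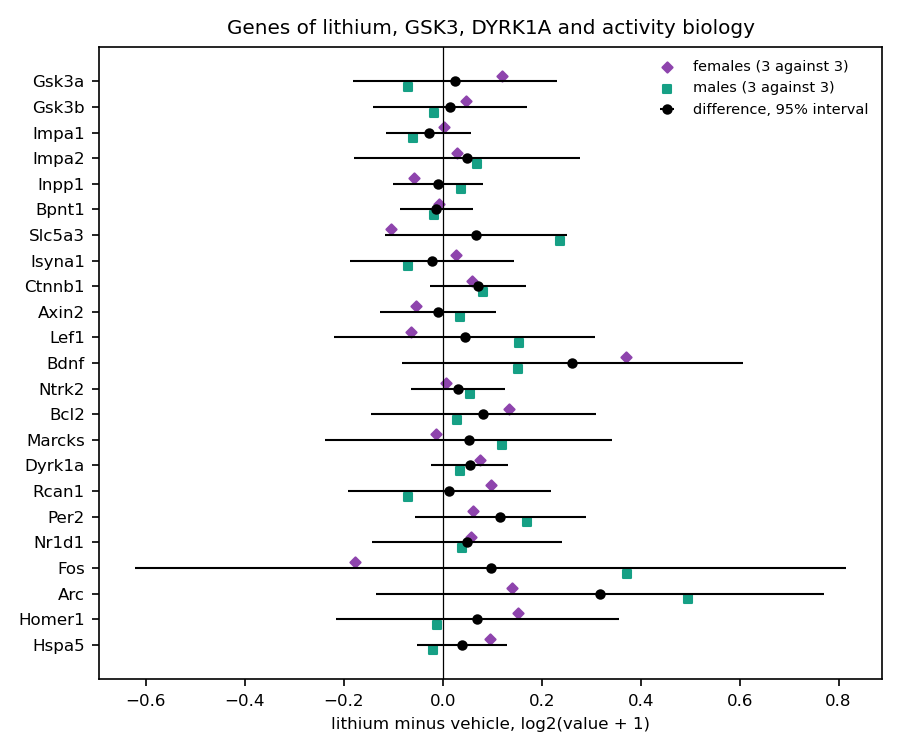
Difference of lithium and vehicle on the log2(value + 1) scale for 23 genes of lithium, GSK3, DYRK1A and activity biology: black points with 95% intervals over both sexes, purple diamonds for females and green squares for males (3 against 3 each). All 23 intervals include 0, and they are narrowest for Bpnt1, Dyrk1a and Impa1 and widest for Fos.

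Of 19 immediate early genes, which respond within minutes to synaptic input, 16 were higher on lithium by a median of 0.20, where 49.5% of all genes tested were higher, and 0 were called. The median was 0.37 in males, with 17 of 19 higher, and -0.08 in females, with 7 of 19 higher. In the bridge library 18 of the 19 were above fluoxetine females 1 and 2, by a median of 0.64. With the batch term the median was -0.33. It also moved with single libraries, to 0.02 without lithium male 1, 0.06 without vehicle male 2, 0.13 without lithium female 3 and 0.31 without vehicle male 3.

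The orphan nuclear receptor Nr4a3 was the immediate early gene of smallest p. Its lithium values were 922, 513 and 922 in females and 1486, 959 and 1013 in males, and its vehicle values 702, 743 and 735 in females and 562, 498 and 645 in males. The 3 lithium males lay above all 6 vehicle libraries, while lithium female 2 lay below all but 1 of them, and the bridge library held 1343. The difference was 0.53 ± 0.16 (limma adjusted p = 1), with 0.06 in females and nearly all of it in males, and the difference between the sexes was 0.94 ± 0.32 (limma adjusted p = 0.998).

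Egr4 held 690 to 1267 against 682 to 830 (0.37 ± 0.17), and Dusp6, a phosphatase that switches off ERK, 1736 to 2878 against 1599 to 1903 (0.29 ± 0.14). These had unadjusted p-values under 0.05 and adjusted p-values of 1 by limma. Arc, which acts at synapses in AMPA receptor removal, held 5224 through 6696 to 9220 against 4228 through 5329 to 7343 (0.32 ± 0.22), with a bridge value of 6702. Fos was spread too widely to separate the arms, at 707 through 1231 to 2129 against 743 through 938 to 2112 (0.10 ± 0.34). The highest Fos value in each arm came from lithium male 1 and vehicle male 3, which are also among the libraries of most olfactory bulb RNA. Npas4, Btg2 and Jun were the 3 lower members, Btg2 at -0.44 ± 0.25.

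Of 15 neurotrophin and late activity genes 15 were higher, all by small amounts (0.01 to 0.26, median 0.07), and 0 were called. Nptx2, a pentraxin secreted at excitatory synapses, held 1100 through 1202 to 1339 on lithium and 1012 through 1060 to 1162 on vehicle (0.17 ± 0.07, limma adjusted p = 1), with a bridge value of 1084. Bdnf, a growth factor often studied under lithium, held 443 through 758 to 983 against 490 through 608 to 760 (0.26 ± 0.16, interval -0.08 to 0.61). The lithium arm of Bdnf held both the lowest and the highest of the 12 values. Rheb, an activator of mTORC1, was at 0.10 ± 0.06, the neuropeptide precursor gene Vgf at 0.16 ± 0.15 and the scaffold gene Homer1 at 0.07 ± 0.14. In the bridge library 12 of the 15 were above the other fluoxetine females, by a median of 0.10, and with the batch term the median was 0.0078.

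Of 21 endoplasmic reticulum chaperone and stress genes 3 had an unadjusted p under 0.05, all higher, where 1.43% of all genes tested did, and 0 were called. Atf4 is described above. Xbp1, another transcription factor of the unfolded protein response, held 1355 through 1556 to 1628 against 1356 through 1443 to 1525 (0.10 ± 0.04), and the chaperone-complex gene Sdf2l1 188 to 310 against 196 to 264 (0.19 ± 0.08). Hspa5, the main chaperone of the endoplasmic reticulum, was at 0.04 ± 0.04 (interval -0.05 to 0.13). Of the 21 genes 15 were higher, with a median of 0.02. Of 15 heat shock chaperone genes 12 were higher, with a median of 0.04. Hspa1b held 311 through 459 to 632 against 260 through 338 to 448 (0.38 ± 0.15) and its neighbour Hspa1a 370 to 565 against 358 to 493 (0.21 ± 0.10). The limma adjusted p was 1 for each gene in this paragraph.

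Circadian and hormone-related genes divided in direction. Per1 held 3861 through 4106 to 5194 on lithium and 2900 through 3953 to 4369 on vehicle (0.20 ± 0.08), with 0.44 in males, -0.03 in females and a bridge value of 5111. The clock repressor Nr1d2 held 2735 to 3306 against 3180 to 3466 (-0.11 ± 0.05), and its relative Nr1d1, a protein stabilised by GSK3, was at 0.05 ± 0.09. Per2 was at 0.12 ± 0.08. Of 19 clock and output genes 8 were higher. Of 17 glucocorticoid-induced genes 10 were higher, 15 of 17 in males and 5 of 17 in females. Errfi1 was at 0.13 ± 0.05 and Hif3a at -0.35 ± 0.13, with Hif3a at -0.76 in females and 0.05 in males. In thyroid hormone transport and response 6 of 13 were higher, with Mme at -0.41 ± 0.20, where vehicle male 1 held the highest value, 335. None of these genes was called, and the limma adjusted p was 1 for each.

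In 4 other gene groups tied to lithium the medians were between 0.01 and 0.06. Of 15 Bcl2 family genes 11 were higher, with Bcl2 at 0.08 ± 0.11, Bax at 0.09 ± 0.05 and Mcl1 at 0.11 ± 0.08. Of 21 autophagy and lysosome genes 14 were higher, with Gabarap, a gene of autophagosome formation, at 0.08 ± 0.04 and the lysosomal regulator Tfeb at 0.18 ± 0.10. Of 20 genes of sodium, potassium and lithium transport 12 were higher, with a median of 0.01. In the arachidonic acid cascade, another system lithium is known to act on, 9 of 14 were higher, with the prostaglandin synthases Ptgs1 at -0.18 ± 0.10 and Ptgs2 at 0.19 ± 0.13, and Ptges3 at 0.09 ± 0.04. Of these lists 0 members were called.

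Synaptic genes showed little movement over both sexes. Of 24 glutamate receptor and postsynaptic genes 16 were higher (median 0.01), with Gria4 at -0.12 ± 0.10. Of 16 GABA-A receptor and inhibitory synapse genes 5 were higher (median -0.02), and of 13 serotonin receptor and monoamine genes 5 were higher (median -0.04), with Htr2c at 0.33 ± 0.31. Presynaptic vesicle release genes were higher in 13 of 20 cases (median 0.02), in 18 of 20 in females and in 6 of 20 in males.

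The sexes also stood on opposite sides in 3 large metabolic lists. Nuclear-encoded oxidative phosphorylation genes were higher on lithium in 39 of 40 cases in females (median 0.08) and in 9 of 40 in males (median -0.03), where 50.1% and 49% of all genes tested were higher. For cytosolic ribosomal proteins, 41 of 46 genes were on the higher side in females (median 0.07) and 15 of 46 in males (median -0.02), and cholesterol synthesis genes in 21 of 22 (median 0.09) and 8 of 22 (median -0.02). Cox7c, a subunit of cytochrome oxidase, held 2421 to 2724 against 2170 to 2466 (0.14 ± 0.05), and Ndufb5, of complex I, 1547 to 1723 against 1453 to 1618 (0.10 ± 0.04). Rpl14 was on the other side at -0.17 ± 0.07. Lss, an enzyme of cholesterol synthesis, was at -0.09 ± 0.05. Over both sexes 31 of 40, 33 of 46 and 17 of 22 were higher, with 0 called and with medians of 0.02, 0.02 and 0.04.

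These medians moved with the libraries used. Without the 6 of 24 libraries of highest olfactory bulb score, the female and male medians were 0.05 and -0.04 for oxidative phosphorylation, 0.06 and -0.02 for ribosomal proteins and -0.01 and 0.02 for cholesterol synthesis. Without the libraries of high Drd2 or Ttr they were 0.12 and 0.0020, 0.06 and 0.02, and 0.10 and 0.02. The sexes of the cholesterol synthesis list thus changed sides in the first of these sets. In the second set the medians of each list were positive in both sexes, so the sexes no longer stood on opposite sides. No gene of these lists was called for a difference between the sexes. Within the mitochondrially encoded genes 7 of 13 were higher, with wide spreads (mt-Co2 at -0.33 ± 0.29, mt-Atp6 at 0.33 ± 0.29).

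Microglial markers were lower on lithium in 13 of 14 cases, where 50.5% of all genes tested were lower, with a median of -0.10 and 0 called. Their summed level was 12754 through 13720 to 14816 on lithium and 14134 through 14602 to 15338 on vehicle, with 13253 in the bridge library. The lysosomal protease Ctss held 1317 through 1348 to 1460 against 1415 through 1487 to 1552 (-0.12 ± 0.05, limma adjusted p = 1), with a bridge value of 1365. P2ry12 stood at -0.14 ± 0.11 and Tmem119 at -0.10 ± 0.07, while Fcrls was level at 0.0012 ± 0.05. In the bridge library 12 of the 14 were below the other fluoxetine females, by a median of -0.15. With the batch term the median was 0.07, and without lithium male 1 it was -0.06. Among 17 interferon response genes 15 were lower, and the list's median was -0.08, with Ifit3 at -0.26 ± 0.19 and B2m at -0.08 ± 0.08. That median was 0.00009 without the 6 libraries of highest bulb score and -0.02 without vehicle female 2.

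Markers of the other cell types gave the following. Of 13 excitatory neuron genes 10 were higher (median 0.08) and of 14 inhibitory neuron genes 6 (median -0.04), with Tbr1 at 0.33 ± 0.28 and Gad2 at -0.28 ± 0.22. Of 14 astrocyte genes 10 were higher (median 0.03), and of 12 genes of oligodendrocyte precursors and newly formed oligodendrocytes 4 (median -0.02). Of 15 endothelial and pericyte genes 7 were higher, with Cldn5 at 0.17 ± 0.13. Myelin genes were higher in 14 of 15 cases (median 0.10), with Mog at 773 through 1123 to 1255 against 707 through 939 to 1373 (0.19 ± 0.17). Their summed level was 74408 to 128378 on lithium and 68451 to 143395 on vehicle, and the bridge library was lower than the other fluoxetine females in 14 of 15, by a median of -0.36. The myelin median ran from -0.0070 without vehicle male 2 to 0.21 without vehicle male 1. Red blood cell genes were higher in 5 of 5 cases (median 0.21), with Hba-a1 at 0.24 ± 0.18, and with the batch term in 2 of 5 (median -0.12).

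Striatal, choroid plexus and olfactory bulb genes showed how far single libraries can move a list. Among 13 genes of striatal projection neurons 12 were lower, with a median of -0.39 over both sexes and -0.76 in males. Their summed level was 11619 to 17758 on lithium and 11532 to 53888 on vehicle, where the highest value came from vehicle male 1 and the next vehicle library held 19268. Drd2 held 15.2 through 26.8 to 81.3 against 16.1 through 55.4 to 1379 (-1.36 ± 0.87). Without vehicle male 1 the median was -0.05, and without the 3 libraries of high Drd2 or Ttr 8 of the 13 were higher (median 0.03). Of 10 tested choroid plexus and meningeal genes 3 were higher, Clic6 at -1.23 ± 0.67, with Folr1 and Otx2 below the minimum. Of 13 olfactory bulb genes 5 were higher, 3 in females and 11 in males. Eomes held 1.23 through 192 to 1237 on lithium and 0 through 27.5 to 1552 on vehicle.

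**Figure D5:**
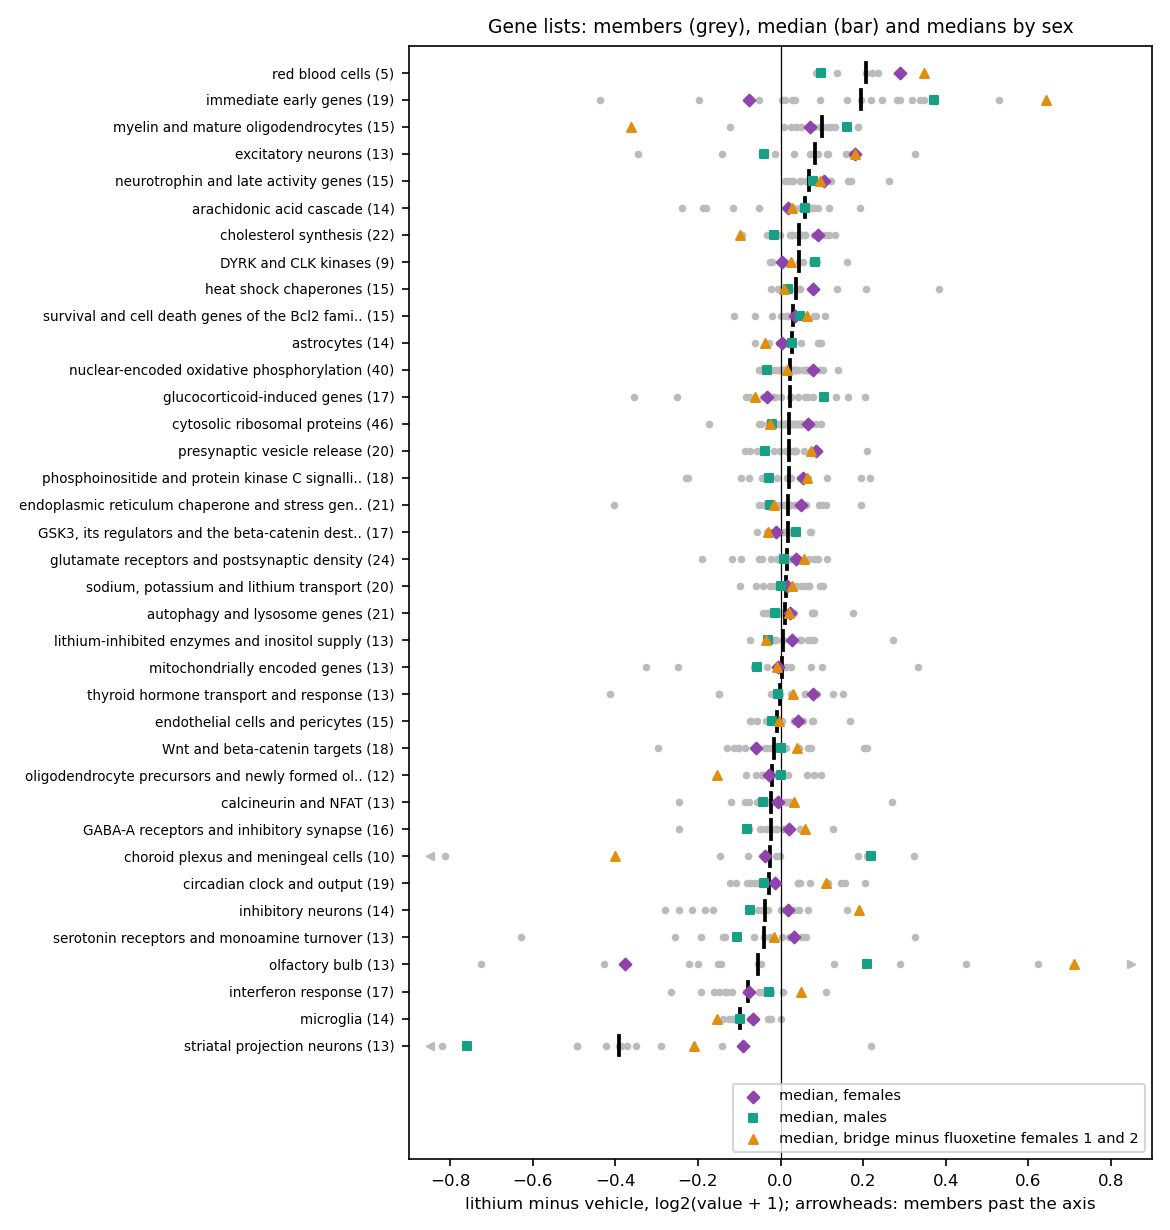
Differences of lithium and vehicle on the log2(value + 1) scale for the members of 37 gene lists (grey points; arrowheads, members past the axis), with the number tested in brackets: black bar, median over both sexes; purple diamond, females; green square, males; orange triangle, the bridge library minus fluoxetine females 1 and 2. Medians lie near 0 except for red blood cell, immediate early and striatal genes, and the bridge library stands on the same side as lithium for immediate early and microglial genes and on the other for myelin genes.

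Within females, 3 against 3, limma called 0 of 16825 genes (0% of those tested), with 266 at an unadjusted p under 0.05, or 1.58%. edgeR called 0 and DESeq2 2 (0.0119%), Gm28048 and Gm12671. Within males limma called 1 gene (0.00594%), with 451 at an unadjusted p under 0.05, or 2.68%. edgeR called 0 in males.

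The gene called in males was Xist, the X-linked RNA that silences an X chromosome in females. The 3 lithium males held 17.6, 11.3 and 16.3, against 1.1, 1.1 and 2.0 in the vehicle males (2.74, limma adjusted p = 0.0481), while no female library was below 21340. The groups did not overlap, and both are far below the female level. Fluoxetine males, all of batch P40_L1, held 8.2, 0.8 and 2.8. The call was lost when any of the 12 libraries was left out, with a pseudocount of 0.5 or 10, with the batch term, without the libraries of high Drd2 or Ttr and under TMM or quantile scaling.

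DESeq2 called 9 genes in males (0.0535%), of which limma called Xist alone. Nectin1, a cell adhesion gene, held 1452, 1358 and 1286 in lithium males and 858, 796 and 947 in vehicle males, with no overlap (DESeq2 0.65, adjusted p = 0.00295). In females it held 1270, 908 and 1084 against 1108, 1045 and 950, where the groups overlapped, and the bridge library held 1178. Nr4a3 was among them (DESeq2 adjusted p = 0.0326). Unc13c held 524, 460 and 509 against 1322, 677 and 805 (DESeq2 adjusted p = 0.0364), and Gkn3, a gene of arterial endothelium, 41.3, 38.7 and 40.3 against 76.3, 89.1 and 112 (DESeq2 adjusted p = 0.0364). In females Gkn3 ran the other way, at 127, 93.4 and 73.0 against 57.8, 79.7 and 70.6. The others were Gm28048, Rpl15-ps3, Gm12671 and the pseudogene Gm7334, at 14.5 to 49.0 on lithium and 0 in the 3 vehicle males, although vehicle female 1 held 210.3.

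The difference between the sexes in the lithium effect was tested directly. Of 16825 genes 0 (0%) were called by limma, edgeR or DESeq2, with 274 at an unadjusted p under 0.05 by limma (1.63%), 263 by edgeR (1.56%) and 225 by DESeq2 (1.34%). The median standard error of this contrast was 0.21, so only large differences between the sexes could pass. Among the genes named here it was 3.08 ± 0.59 for Xist (limma adjusted p = 0.833), 5.47 ± 2.82 for Gm7334, -1.64 ± 0.35 for Gkn3, 0.59 ± 0.18 for Nectin1, 1.24 ± 0.62 for Klhl14, 0.94 ± 0.32 for Nr4a3, 0.81 ± 0.25 for Hif3a, -0.73 ± 0.28 for Unc13c and 0.47 ± 0.15 for Per1, each of these but Xist with a limma adjusted p of 0.998. Fitted on the 12 libraries alone, limma called 1 gene for this contrast, Xist.

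A fit with batch as a term estimates it from the bridge library against 2 others, so its standard errors were large. Those libraries also differ in olfactory bulb and choroid plexus RNA, as given above. It called 1 gene over both sexes, Gm43110, and 0 of the genes called without it. Lrrc75a stood at 0.24 and Atf4 at 0.09 in it, close to the values above, while Nr4a3 moved from 0.53 to 0.07, Fos from 0.10 to -0.92, Cx3cr1 from -0.12 to 0.12 and Mog from 0.19 to 0.55. Nothing in these libraries shows which part of any difference belongs to lithium and which to the batch.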

How the data were processed

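Polyadenylated RNA of prefrontal cortex was sequenced with a strand-keeping kit, per the labels' protocols. Salmon 0.11.2, DESeq2 1.19.11, R 3.6.0 and the build GRCm38 are named in the submitters' processing notes, which state no role or order. The strand setting of the counting is not given in the sources used here. The deposited table holds a normalised read signal for 18240 genes in 24 libraries, which the authors had divided by a factor per library. Each library's values were whole multiples of what 1 read is worth (100% within 0.01), so reads were recovered. The value of a read was fitted alike in every library, and in vehicle female 2 it was 0.997. Of the genes, 18227 matched GENCODE M21 and 13 did not.

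Values were tested as log2(value + 1) with limma 3.58.1 (trend) in R 4.3.3. Genes needed a mean of at least 10 over the 24 libraries, which left 16825 and set 1415 aside. All 24 libraries entered with 8 means (arm by sex), and p-values were adjusted by Benjamini-Hochberg over all genes tested. The quasi-likelihood test of edgeR 4.0.16, with TMM scaling, and DESeq2 1.42.0 were run on the recovered reads as alternatives. The procedure was tested on simulated data. These were drawn without a batch difference, varying tissue or shared reads, so the simulation does not bear on those limits.

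Alternatives were other filters, pseudocounts and scalings, a batch term, a replicate block, leaving out each library, leaving out libraries of high Drd2 or Ttr or of high olfactory bulb score, and that score as a covariate. The last was chosen after seeing the data. Libraries of high Drd2 or Ttr were those over 10 times the median. No pair of the 12 libraries was alike within sampling noise (smallest chi-square per gene 5.72).

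The members, gene lists and rules were chosen with earlier results of these data known. Named genes were those called in any contrast, their overlapping or parent genes, genes called by DESeq2, a panel of 23 genes, up to 3 members of smallest p from each of 37 lists, and the 8 protein-coding genes of smallest p in each direction with a mean of at least 50 and all 6 lithium libraries on 1 side of the vehicle mean. Other genes named, among them those whose arms did not overlap and further list members, were chosen after their values were seen. Some list members are not reported here.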

Additional observations from a re-analysis of the deposited data

Results flagged for a closer look

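In 36 of 306 cases (a gene in an arm) the highest or lowest library of an arm of 6 stood apart from the rest by a gap past Dixon's 95% critical value. Chance gives such a gap in about 1 in 20 arms, and genes of the same library are not independent. None of the causes was tested.

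Lithium male 1, the lithium library with the highest olfactory bulb sum, gave 18 of the 36. It was the highest lithium library for Slc5a3 (761), Nkd2 (232), Marcksl1 (4284), Mcl1 (2161), Slc17a6 (642), Ifit2 (437), Gad2 (6675), Aqp4 (4367), Cldn5 (968), Eomes (1237), Synpr (9039) and Epb41 (1453). It was the lowest for Gsk3a (4938), Rcan1 (1186), Cdipt (2495), Ccnd1 (1524), Cx3cr1 (1118) and Cracr2a (63.0). Synpr and Eomes are olfactory bulb genes in the lists used.

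Vehicle male 1, the vehicle library with the highest striatal sum, was the highest of its arm for Drd2 (1379), Pde10a (7853), Gpr6 (375), Foxp2 (749.9), Nfatc2 (505), Mme (335), Epb41 (1813) and Unc13c (1322). Among the lithium libraries, female 1 was the highest for Drd2 (81.3) and Gpr6 (95.8).

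Vehicle male 3 was the highest of its arm for Rps6 (4427), Pecam1 (675) and Col1a1 (553). Vehicle female 1 was the highest for Hspa1a (493) and the lowest for Axin2 (833). Lithium female 2 was the highest for B2m (2055) and the lowest for Commd1 (291), and lithium female 3 was the lowest for Clk3 (2106).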

How the results depend on the processing

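Over both sexes limma called 2 genes. It called 1 with a minimum mean of 50 or under quantile normalisation (Gm28048), 1 with the batch term (Gm43110), 1 without the 6 libraries of highest olfactory bulb score (Cracr2a), 0 with a pseudocount of 10, 0 by edgeR, and 0 without the libraries of high Drd2 or Ttr. The 12 libraries alone gave 3, with Gm12671 added. Without single libraries it called between 0 and 0. The replicate block gave 3 over both sexes (2 without it), 1 in females (0 without it) and 3 in males (1 without it). Same-numbered libraries had correlations of their deviations from -0.57 to 0.20, over 0.1 in 1 of 6 pairs, and 1 lithium library was closest to its own number, so the numbers were not taken as pairs. In females, where 0 genes were called, the 12 libraries alone gave 2, the batch term 1 (Gm43110), DESeq2 2, and the set without high Drd2 or Ttr 1 (Gm18537). In males, where 1 gene was called, counts were 0 with a pseudocount of 0.5 or 10, the batch term, TMM, quantile normalisation or edgeR, and 0 without high Drd2 or Ttr. They were 4 with the 12 libraries alone, 9 by DESeq2 and 2 (Nectin1 and Xist) when the bulb score entered the fit, and between 0 and 0 without single libraries. The difference between the sexes gave 0 genes, and 1 with the 12 libraries alone (Xist). The cause of these changes was not tested. Of the counts of called genes, 48 moved by over 1.5 times and 56 did not. No called value changed sign. Among values of single genes and lists, 4847 stayed on their side of the threshold or moved by less than the spread between replicates, which allows a change of sign near 0, as for Fos and Gsk3b. A further 52 moved by more, 35 lost a call and 4 gained one. The floor given for the features at 0 covers counting error only, not the division of reads shared with a parent gene. The 6 libraries per arm limit the rest.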
